A study of Mus musculus with 5 samples.

Results

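The proteasome is the barrel-shaped protease that degrades ubiquitin-tagged proteins, and the genes of its subunits and of the factors that assemble it were examined in injured mouse kidney. A gene was included if its symbol was Psm followed by a letter from a to g and a number, or if it was Pomp. The rule found 49 of the 35478 genes in the count tables. They comprised 14 subunits of the 20S core, 2 tissue-restricted variants of core subunits, 3 immunoproteasome subunits, 22 regulatory genes and 8 assembly genes.

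RNA was sequenced from the kidneys of 5 mice of the C57BL/6J;129 strain, given as C57BL/6J in the sample titles, and described in the study's methods as male and 7 to 8 weeks old. The 2 controls, mice 1 and 3, were PRDM16flox/flox (Prdm16fl/fl) and carried Prdm16 alleles with exon 9 between loxP sites. The other 3, mice 1, 2 and 3, were Ksp-Cre/PRDM16 flox/flox (Ksp-Cre/Prdm16fl/fl), which carry the same floxed alleles and a Cre transgene that acts in tubular epithelium, so that interstitial, vascular and immune cells keep the gene. All 5 underwent unilateral ischaemia-reperfusion injury (UIRI): the left renal pedicle was clamped for 35 minutes at 38.5 °C, the right kidney was taken out on day 10, and the mice were killed 24 hours later, on day 11. No uninjured kidney was analysed here, so every value describes an injured kidney, and the comparison is between genotypes after injury.

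The 20S core is a stack of 4 rings in which alpha subunits (Psma) form the outer gates and beta subunits (Psmb) the inner chamber, where Psmb5, Psmb6 and Psmb7 carry the active sites. The 19S regulatory particle caps the core, with a ring of ATPases (Psmc) that unfolds substrates and non-ATPase subunits (Psmd) that bind ubiquitin, remove it and hold the particle together. In cells exposed to interferon the immunoproteasome subunits Psmb8, Psmb9 and Psmb10 take the places of Psmb5, Psmb6 and Psmb7 in new particles, and leukocytes make them without stimulation. Chaperones such as Pomp and Psmg1 to Psmg4 assemble the rings, and the transcription factors Nfe2l1 and Nfe2l2 raise subunit genes when proteasome capacity or redox balance is disturbed.

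Promoter windows from RefSeq (build GRCm38.p6, 250 bases before to 50 after the start) were matched by symbol for 41 of the 49 genes. Stretches are shown from 4 genes that had a motif match and form pairs compared further on. Psmb5 and Psmb6 are active in the ordinary core, and Psmb8 and Psmb9 replace them. The last such pair is not shown, because Psmb7 had no window and Psmb10 had no motif match in its window. The capitals mark a match to a short motif on either strand. In Psmb5 (chr14:54618008-54618068, minus strand) and Psmb6 (chr11:70525322-70525356, plus strand) they mark the antioxidant response element core TGACNNNGC. In Psmb8 (chr17:34198072-34198132, plus strand) they mark the gamma-activated site TTCNNNGAA, and in Psmb9 (chr17:34187331-34187364, minus strand) a CCAAT box read on the opposite strand. All 4 stretches end before or at the last base upstream of the annotated start.
Psmb5: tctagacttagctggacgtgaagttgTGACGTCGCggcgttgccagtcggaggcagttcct
Psmb6: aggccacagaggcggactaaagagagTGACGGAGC
Psmb8: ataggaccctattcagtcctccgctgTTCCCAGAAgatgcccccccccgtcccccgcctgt
Psmb9: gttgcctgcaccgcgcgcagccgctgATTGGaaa

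The same motifs were found in promoters at large. The antioxidant response element core was present in 13.6% of the 44 windows of proteasome genes and in 12.4% of all 32851 windows. CCAAT was present in 31.8% against 37.4% and the gamma-activated site in 6.82% against 8.3%. The core of the interferon-stimulated response element was present in 11.4% against 3.44%, the former being 5 windows. These belonged to Psmb3, Psmd4, Psmd9, Psme1 and Psmg4, and 0 of the 3 immunoproteasome windows had this motif. The gamma-activated site reads the same on both strands, and matches of different motifs could overlap. A match describes letters in a window, and binding was not measured.

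The 5 libraries held 14939040 to 16425161 counts assigned to genes, and 16394 genes passed the filter on low counts. Levels between mice are given as CPM, or counts assigned to the gene per 1000000 counts, after TMM scaling, and levels between genes as the deposited TPM, a per-transcript share that divides by gene length. Prdm16, the targeted gene, had 25.3 and 20.02 CPM in the Prdm16fl/fl mice and 17.1, 16.95 and 18.0 CPM in the Ksp-Cre mice. All 3 Ksp-Cre mice lay under both controls, but the log2 fold change of -0.38 ± 0.15 (SE) did not pass the threshold (adjusted p = 0.259, edgeR's quasi-likelihood test with Benjamini-Hochberg adjustment). The count covers the whole gene, including exons outside the deleted one. Ksp-Cre mouse 3 stood apart: its log2 CPM correlated with the other libraries at a Pearson r of 0.9428 to 0.9601 across genes, against 0.9913 between Ksp-Cre mice 1 and 2.

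Sums of several cell type marker lists also separated the genotypes, though those of the endothelial markers overlapped. All 12 proximal tubule markers tested were lower in every Ksp-Cre mouse than in both controls, with summed levels of 21370 and 26920 CPM in the controls and 6650 to 10030 CPM in the Ksp-Cre mice. Much of each sum was Kap, at 12510 and 18230 CPM against 2996, 4121 and 7403 CPM. By sum Ksp-Cre mouse 3 was the least reduced. By the median difference in log2 CPM from the control mean it was the lowest, at -1.71 against -1.03 and -1.01 in Ksp-Cre mice 1 and 2. The 8 tubular injury markers summed to 2398 and 2981 CPM against 4655 to 5541 CPM, the 8 fibroblast markers to 516 and 762 CPM against 860 to 1261 CPM, and the 5 erythroid markers to 6.67 and 10.8 CPM against 40.5 to 151 CPM. The 5 podocyte markers summed to 527 and 687 CPM against 383 to 430 CPM. The 6 endothelial markers summed to 244 and 247 CPM against 196 to 262 CPM. Single markers overlapped between the groups in some of these lists: 3 fibroblast, 2 podocyte, 5 endothelial and 1 tubular injury marker. In whole kidney tissue, fewer cells of a type and less RNA per cell cannot be told apart, and the part of any cell type in the values of the proteasome genes was not tested.

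Across the proteasome genes, none of the 47 tested passed an adjusted p under 0.05 in edgeR's quasi-likelihood test, where 0.976% of all genes did. DESeq2 and limma on log2 FPKM also called none. At an unadjusted p under 0.05, 3 genes were lower in the Ksp-Cre mice (Psma4, Psmb6 and Psmg3) and none was higher, where 11.2% of all genes were lower and 7.64% higher by that rule. The counts changed with the fit. With library size scaling they were 2 higher (Psmd1 and Psmd13) and 0 lower. With limma on log2 FPKM they were 2 higher (the same 2) and 1 lower (Psmg3). With the trend on gene length removed they were 1 higher (Psmd13) and 0 lower. No share of all genes stands beside the counts of these other fits. A change of scaling also shifts nearly all genes alike, so these counts are no result about the proteasome genes. The groups did not overlap, with the Ksp-Cre mice lower, in 9 of the 47 genes (19.1%, against 21.3% of all genes), and with the Ksp-Cre mice higher in 4 (8.51%, against 20.3%). The remaining 2 genes did not pass the filter: the testis-expressed Psma8 had 5 to 8 counts in a library and the thymus-expressed Psmb11 had 0 counts in every library.

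The intervals show what these 5 mice could resolve. For 46 of the 47 genes the 95% interval of the log2 fold change lay within 1 on either side of 0, so that a 2-fold change in either direction was outside it. Psmb9 was the exception, with an interval from -1.43 to 0.47. The median over the 47 genes was -0.12 on the log2 scale, with 32 lower and 15 higher, beside a median of 0.038 over all genes tested.

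**Figure D1:**
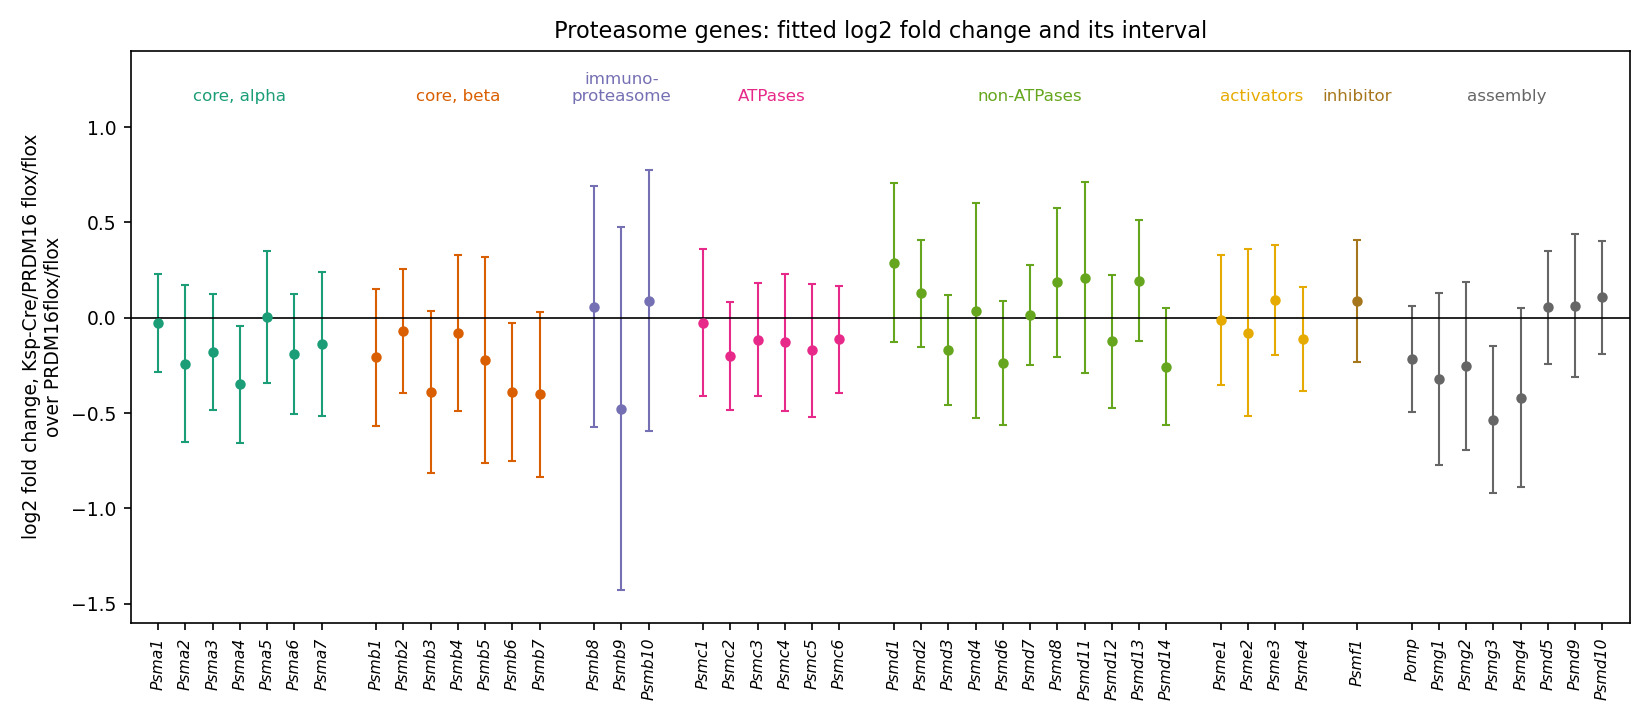
Fitted log2 fold change of each of the 47 tested proteasome genes (Ksp-Cre/PRDM16 flox/flox, n = 3, over PRDM16flox/flox, n = 2), by class. Points are estimates, bars are 95% intervals and the line marks no difference: only the interval of Psmb9 reaches past 1 in size, and those of Psma4, Psmb6 and Psmg3 lie wholly under 0.

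The core genes were among the more abundant transcripts of the kidney. Their TPM ran from 76.4 for Psma3 in Prdm16fl/fl mouse 1 to 587 for Psmb4 in Ksp-Cre mouse 3, and the median of the 14 was 270 to 345 TPM in the 5 libraries. Psmb4, Psmb5 and Psmb3, with mean TPM of 514, 463 and 442, stood at the 98.3, 98.1 and 98.0 percentile of the genes tested. Psma3 had the lowest TPM of the 14 in every library, and its length in the tables, 3325 bp, was the longest of the core genes. Within a library the highest core gene had 5.92 to 7.3 times the TPM of the lowest, although the assembled particle holds each subunit in equal number. The lowest was always Psma3, whose TPM is divided by that length, and the part of the length in this ratio was not tested. Among the 7 beta genes the ratio was 2.07 to 2.57.

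Core genes were mostly lower by estimate in the Ksp-Cre mice, a direction that turned when the trend on gene length was removed. The median log2 fold change of the 14 was -0.20; 13 had estimates under 0 and Psma5 was at 0.0022, and none passed the adjusted threshold. In single mice the median difference in log2 CPM from the control mean was -0.14 and 0.14 in the controls and -0.25, -0.35 and -0.02 in Ksp-Cre mice 1, 2 and 3. Control mouse 3 was the highest of the 5 libraries for 13 of the 14 genes, and Psmb4 was the exception. Ksp-Cre mice 1 and 2 were both under both controls for 12 of 14 genes, where 30.7% of all genes showed this. Ksp-Cre mouse 3 lay between the controls for 11. The shares of all genes with control mouse 3 highest, or with Ksp-Cre mouse 3 between the controls, were not counted. Without Ksp-Cre mouse 3 the core median was -0.28, and without control mouse 3 it was -0.067, with 4 of 14 genes higher.

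Psma4, an alpha ring subunit, had the lowest fold change of the alpha genes. It measured 205 and 237 CPM in the controls and 169, 168 and 183 CPM in the Ksp-Cre mice, so the groups did not overlap. The log2 fold change was -0.35 ± 0.13 (SE, n = 2 and 3), with an adjusted p of 0.216 in edgeR's test. A non-coding gene on the other strand shares 123 bp of its exons, but had 50 counts in all against 14907 for Psma4. At the other end of the alpha genes stood Psma5, with 71.1 and 88.5 CPM against 77.4, 74.8 and 87.5 CPM. Its groups overlapped throughout, and its log2 fold change was 0.0022, with an interval from -0.34 to 0.35.

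The 3 catalytic beta subunits differed in how far the groups separated. Psmb6, which cuts after acidic residues, measured 149 and 186 CPM in the controls and 125, 118 and 141 CPM in the Ksp-Cre mice, with no overlap (log2 fold change -0.39 ± 0.15, adjusted p = 0.237 in edgeR's test). Psmb7, which cuts after basic residues and had the lowest fold change of the beta genes, measured 137 and 176 CPM against 116, 102 and 137 CPM. Ksp-Cre mouse 3 was level with control mouse 1, and the log2 fold change was -0.40 ± 0.18 (adjusted p = 0.296).

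Psmb5, the chymotrypsin-like subunit and the main target of bortezomib, measured 161 and 208 CPM in the controls and 139, 135 and 201 CPM in the Ksp-Cre mice. Mouse 3 of each genotype was high and the groups overlapped, so that the log2 fold change of -0.22 had an interval from -0.76 to 0.32. Psmb2, a beta ring subunit without catalytic activity and with the smallest difference of the beta genes, measured 74.0 and 92.1 CPM against 79.9, 75.2 and 82.5 CPM. All 3 Ksp-Cre values lay between the 2 controls.

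Calls among the proteasome genes appeared when Ksp-Cre mouse 3 was left out. Without that mouse 5 proteasome genes passed an adjusted p under 0.05, all lower: Psmb7 (-0.52), Psmb3 (-0.50), Psmb6 (-0.46) and Psma4 (-0.39) of the core, and Psmg3 (-0.48) of the assembly genes, on the log2 scale. By that comparison of 2 with 2 mice, 11% of all genes were called lower, so 5 of 47 was a share near the background. Leaving out any other single mouse gave no call among the 47, but in those fits 0 genes of the whole table were called, so they say nothing about the proteasome genes.

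**Figure D2:**
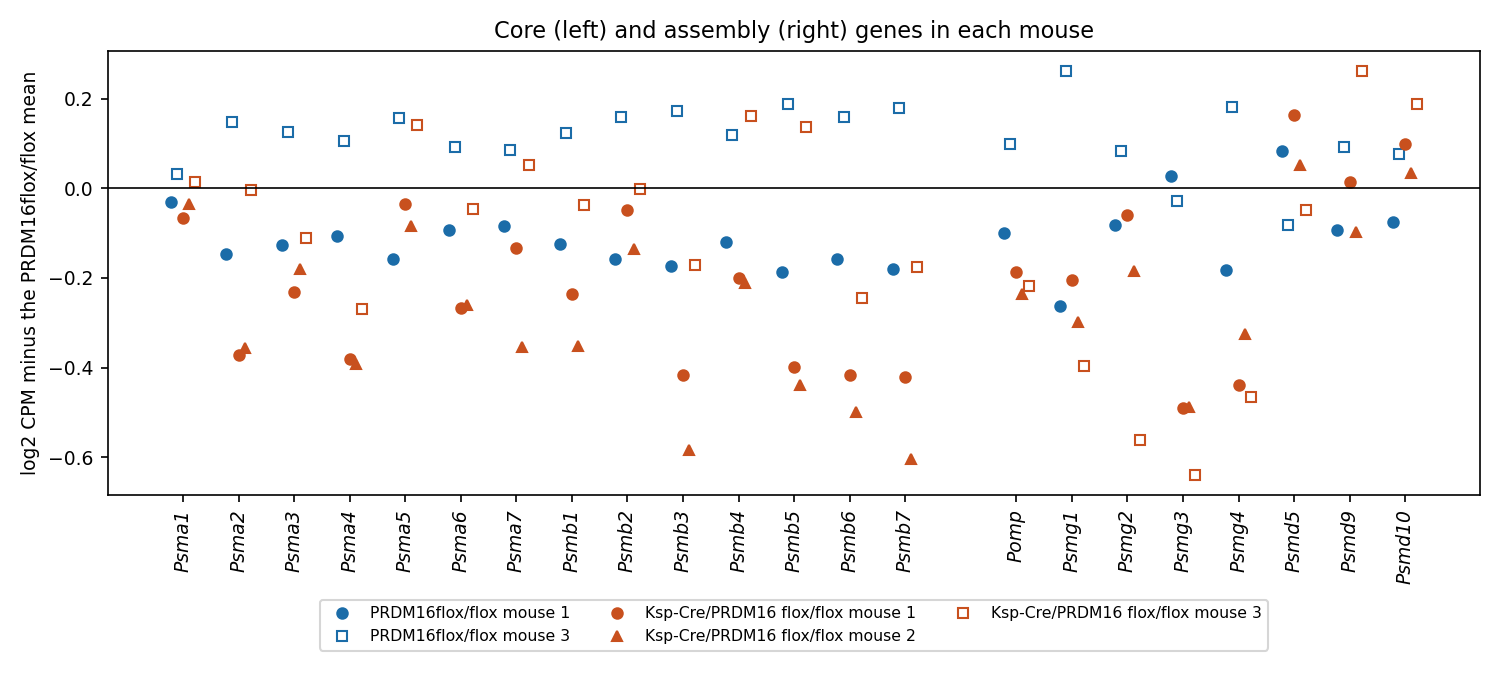
Log2 CPM of each core gene (left) and assembly gene (right) in each mouse, minus the mean of the 2 PRDM16flox/flox mice, on the vertical axis. Blue marks are the 2 PRDM16flox/flox mice and orange marks the 3 Ksp-Cre/PRDM16 flox/flox mice; open squares are mouse 3 of each genotype, and Ksp-Cre mouse 3 lies between the controls for 11 of the 14 core genes.

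The immunoproteasome genes varied most between mice of one genotype. Psmb8 measured 66.9 and 77.3 CPM in the controls and 77.9, 95.8 and 51.3 CPM in the Ksp-Cre mice. Ksp-Cre mouse 2 was the highest and mouse 3 the lowest of all 5, so the groups overlapped (log2 fold change 0.058, interval -0.57 to 0.69). Psmb10 had the same order at the ends, with 36.5 and 43.8 CPM against 45.1, 54.8 and 28.1 CPM (0.089, interval -0.59 to 0.77). Psmb9 measured 25.9 and 40.0 CPM against 24.2, 33.4 and 13.2 CPM (-0.48, interval -1.43 to 0.47), and here the highest library was a control. Without Ksp-Cre mouse 3 the estimates were 0.27 for Psmb8, 0.32 for Psmb10 and -0.19 for Psmb9, and without Ksp-Cre mouse 2 they were -0.16, -0.13 and -0.81. In these tables Psmb9 (chromosome 17, 34400961 to 34406304, minus strand) and Psmb8 (34417169 to 34420428, plus strand) lie near each other, in the major histocompatibility complex.

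Set against the subunit that each replaces, the immunoproteasome genes were the minor form in every mouse. The TPM of Psmb8 was 0.297 and 0.264 of that of Psmb5 in the controls and 0.4, 0.505 and 0.182 in Ksp-Cre mice 1, 2 and 3. For Psmb10 to Psmb7 the ratios were 0.222 and 0.207 against 0.324, 0.447 and 0.17. For Psmb9 to Psmb6 they were 0.176 and 0.218 against 0.197, 0.287 and 0.095. Ksp-Cre mouse 2 was the highest and Ksp-Cre mouse 3 the lowest of the 5 mice in all 3 ratios, so both ends of the range came from one genotype.

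**Figure D3:**
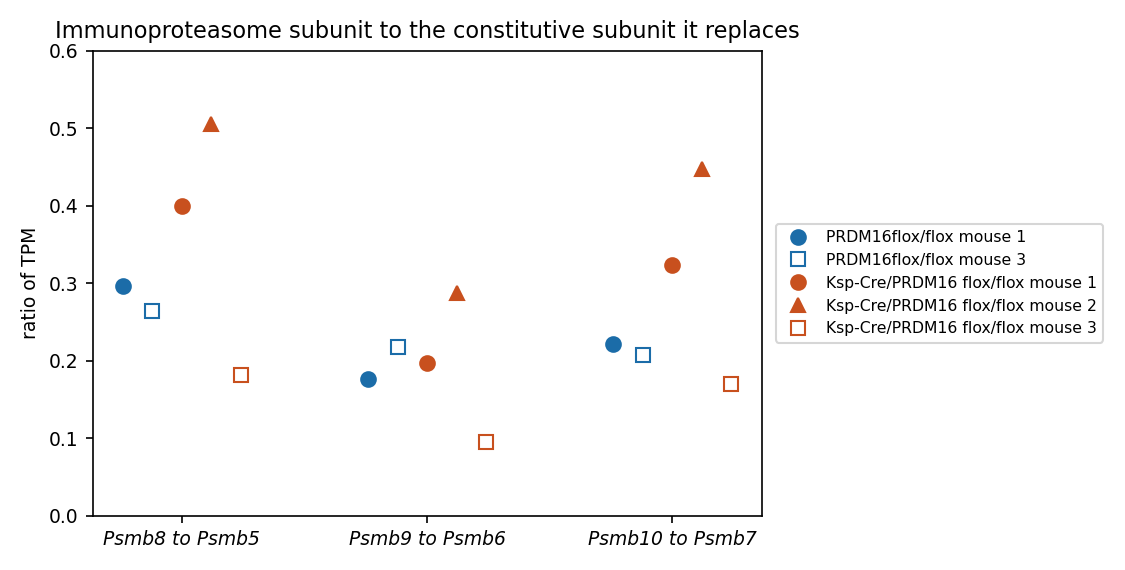
Ratio of the TPM of each immunoproteasome gene to that of the constitutive subunit whose place it takes (vertical axis, from 0), in each of the 5 mice. In all 3 pairs Ksp-Cre/PRDM16 flox/flox mouse 2 is the highest and mouse 3 the lowest, with both PRDM16flox/flox mice between them.

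Several leukocyte markers were also low in Ksp-Cre mouse 3, though macrophage markers were mixed. The 8 pan-leukocyte markers summed to 449 and 485 CPM in the controls and to 561, 573 and 349 CPM in the Ksp-Cre mice. The 8 macrophage markers summed to 951 and 1329 CPM against 1541, 1400 and 779 CPM, and the 7 T and NK cell markers to 53.7 and 61.2 CPM against 52.3, 69.5 and 32.6 CPM. The median difference from the control mean in Ksp-Cre mouse 3 was -0.48 for the pan-leukocyte and -0.70 for the T and NK cell markers on the log2 scale, but -0.031 for the macrophage markers, inside the -0.18 and 0.18 of the controls. Named after their values were seen, Lyz2 (229 CPM against 464 and 716 in the controls) and Adgre1 (12.3 CPM against 36.5 and 40.6) were low in that mouse, while Itgam was highest there at 56.3 CPM and Laptm5, at 84.75 CPM, was above both controls. The 6 B and plasma cell markers, at 35.1 and 44.6 CPM against 32.8, 45.3 and 36.6 CPM, did not have this order, and 1 of them, Ms4a1, had 0 counts in Ksp-Cre mouse 3. The part of leukocyte number in the immunoproteasome values was not tested.

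Of 17 wider interferon and antigen processing genes tested, none passed the adjusted threshold in edgeR's test. At an unadjusted p under 0.05, 4 were higher and 0 lower, where 7.64% of all genes were higher and 11.2% lower. DESeq2 called 1 higher, of 311 genes called higher in all. Without Ksp-Cre mouse 3 edgeR called 5 higher, where 1266 of all 16196 genes were. Of the 17, 14 had estimates above 0 (median of all, 0.16). Ifngr2, a chain of the interferon gamma receptor, had the smallest p of the regulators, at 53.1 and 53.2 CPM in the controls and 78.6, 81.8 and 80.6 CPM in the Ksp-Cre mice. Its groups lay well apart with a log2 fold change of 0.60 ± 0.10 (adjusted p = 0.0552, edgeR). Of the 7 antigen processing genes Erap1, which trims peptides for class I molecules, had the smallest p, at 71.2 and 62.4 CPM against 78.9, 101.7 and 66.8 CPM, and its groups overlapped (0.30, interval -0.17 to 0.78).

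Psme1 and Psme2 encode the PA28 activator, which opens the core without ATP and, like the immunoproteasome, responds to interferon. Psme1 measured 120 and 152 CPM in the controls and 136, 138 and 130 CPM in the Ksp-Cre mice, all 3 between the controls (log2 fold change -0.014, interval -0.36 to 0.33). Psme2 measured 73.2 and 85.2 CPM against 80.2, 84.9 and 59.6 CPM, with Ksp-Cre mouse 3 again the lowest (-0.079, interval -0.52 to 0.36). Its near-copy Psme2b had 270 to 474 counts in a library, and reads shared by the pair could have been assigned to either, so the level of Psme2 is uncertain.

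The other 2 activators and the inhibitor work outside the interferon response. Psme3, the nuclear PA28 gamma subunit, measured 111 and 95.5 CPM in the controls and 114, 110 and 107 CPM in the Ksp-Cre mice, and overlapped (0.094, interval -0.19 to 0.38). Psme4, or PA200, measured 150 and 151 CPM against 134, 148 and 136 CPM. Its groups did not overlap, yet the difference was small (-0.11, interval -0.39 to 0.16), and 156 bp of its exons overlap Erlec1 on the opposite strand. Psmf1, the inhibitor PI31, had a log2 fold change of 0.087 (interval -0.23 to 0.41), and shares 684 bp, 18.2% of its length, with Tmem74b on the other strand.

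The 6 ATPases of the 19S particle were all lower by estimate in the Ksp-Cre mice, by small amounts. With the trend on gene length removed 4 of the 6 were higher, and with library size scaling 1, Psmc1. Relative to the median of all genes, theirs was -0.16 in the main fit and -0.16 with library size scaling. With the length trend removed it was -0.027. Log2 fold changes of the 6 in the main fit ran from -0.20 to -0.027 with a median of -0.12, and none passed the adjusted threshold. Psmc2 had the lowest, with 106 and 115 CPM in the controls and 97.0, 88.8 and 101.7 CPM in the Ksp-Cre mice. These groups did not overlap (-0.20 ± 0.12, adjusted p = 0.404, edgeR). Psmc1 had the highest, with 128 and 129 CPM against 112, 116 and 149.9 CPM. Ksp-Cre mouse 3 was above both controls and the other Ksp-Cre mice were under them (-0.027, interval -0.41 to 0.36).

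The 11 non-ATPase subunits went in both directions. Estimates were above 0 for 7 and under 0 for 4 (median 0.037), and none passed the adjusted threshold. Psmd1, the large scaffold of the base of the particle, was the highest, at 132 and 123 CPM in the controls and 137, 142 and 187 CPM in the Ksp-Cre mice. All Ksp-Cre values were above both controls, mouse 3 by the most (0.29 ± 0.17, adjusted p = 0.418, edgeR).

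Psmd2, Psmd8 and Psmd13 were the other non-ATPase genes with higher values in every Ksp-Cre mouse, at log2 fold changes of 0.13, 0.19 and 0.19. With Psmd1 these were 4 of the 11 genes (36.4%), where 20.3% of all genes did the same. Lower values in every Ksp-Cre mouse were found for 2 of the 11, Psmd3 (-0.17) and Psmd14 (18.2%, against 21.3% of all genes). Psmd14, the deubiquitinase of the lid that removes ubiquitin chains before a substrate is drawn in, was the lowest of the class. It measured 81.6 and 95.0 CPM in the controls and 71.4, 70.1 and 80.2 CPM in the Ksp-Cre mice. The groups did not overlap, and the log2 fold change was -0.26 ± 0.13 (adjusted p = 0.334).

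Ksp-Cre mouse 3 took the opposite position in the 19S genes from the one it had in the immunoproteasome. Among the 17 ATPase and non-ATPase genes it was the highest of the 5 libraries for 9 and the lowest for none. The share of all genes with this mouse highest or lowest was not counted, so the order cannot be called a trait of these genes. In single mice the median difference of these 17 genes in log2 CPM from the control mean was -0.042 and 0.042 in the controls and -0.18, -0.21 and 0.081 in Ksp-Cre mice 1, 2 and 3. Mice of the Ksp-Cre genotype thus lay on both sides of the controls, and the median log2 fold change of all 22 regulatory genes was -0.053, with 13 lower and 9 higher, and -0.12 without mouse 3. Per length, Psmd8, Psmd4 and Psmc3 led the 19S genes, with mean TPM of 265, 255 and 254, and Psmd11 had the least, 76.8.

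The dedicated assembly factors held the lowest fold change of any proteasome gene. Psmg3, which with Psmg4 forms a chaperone of the alpha ring, measured 14.7 and 14.1 CPM in the controls and 10.3, 10.3 and 9.26 CPM in the Ksp-Cre mice. The controls lay close together and every Ksp-Cre mouse was under both. The log2 fold change was -0.54 ± 0.16, with the smallest adjusted p of the 47 genes (adjusted p = 0.156, edgeR).

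Its partner Psmg4 was lower in every Ksp-Cre mouse too, at 9.98 and 12.8 CPM in the controls and 8.35, 9.04 and 8.20 CPM in the Ksp-Cre mice (-0.42, interval -0.89 to 0.051). It was chosen here after its values were seen, as the partner of Psmg3. Pomp, which guides the beta ring and is degraded by the finished core, measured 108 and 124 CPM against 101, 97.9 and 99.2 CPM. The 3 Ksp-Cre mice lay close together and under both controls (-0.22 ± 0.11, adjusted p = 0.362).

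Psmg1 and Psmg2, the other alpha ring chaperone pair, were lower by estimate with overlapping groups, at -0.32 and -0.25 on the log2 scale. The 3 chaperones of the 19S base behaved otherwise: Psmd5, Psmd9 and Psmd10 had estimates of 0.056, 0.063 and 0.11. Psmd10, also called gankyrin and the highest of the class, measured 31.1 and 34.5 CPM in the controls and 35.1, 33.5 and 37.3 CPM in the Ksp-Cre mice, with overlap, and 54 bp of its exons overlap Atg4a on the other strand. The median of all 8 was -0.24, with 5 lower and 3 higher, and it was -0.16 without Ksp-Cre mouse 3 and -0.077 without control mouse 3. Pomp was the most abundant of them at 320 to 367 TPM, a level within the range of the core genes, while the other 7 had 24.2 to 73.1 TPM.

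Of 28 tested genes that work with the proteasome, 15 had estimates above 0 and 13 under it, with a median of 0.011. None passed the adjusted threshold in edgeR's test. At an unadjusted p under 0.05, 3 were higher and 4 lower, where 7.64% of all genes were higher and 11.2% lower. DESeq2 called 1 higher and 1 lower, of 311 and 872 in all. Without Ksp-Cre mouse 3 edgeR called 2 higher and 3 lower, where 1266 and 1787 of all 16196 genes were. Among the associated subunits Sem1, a small subunit of the lid, had the smallest p, with 89.3 and 111 CPM against 75.95, 74.1 and 80.6 CPM (-0.38, adjusted p = 0.203, edgeR). Of the shuttle factors it was Ubqln2, a carrier of ubiquitinated proteins, with 39.2 and 38.3 CPM against 46.7, 47.6 and 52.6 CPM (0.34, adjusted p = 0.197). Both had groups that did not overlap.

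The transcriptional regulators of proteasome genes were higher by estimate in 3 of 4 cases. Ddi2, the protease that releases Nfe2l1 from the endoplasmic reticulum, had the smallest p, at 5.80 and 3.23 CPM in the controls and 7.38, 10.9 and 10.4 CPM in the Ksp-Cre mice (1.08, interval 0.27 to 1.89, adjusted p = 0.168, edgeR). Nfe2l2, named after its values were seen, measured 167 and 181 CPM against 218, 199.7 and 257 CPM (0.37, adjusted p = 0.260). Every Ksp-Cre mouse was above both controls for Ddi2 and Nfe2l2, as was the case for 20.3% of all genes. Given to complete the list, Nfe2l1 overlapped, at 203.7 and 169.5 CPM against 211.6, 221.7 and 183.8 CPM (0.14). Ngly1 also overlapped and was lower by estimate (-0.12).

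As short and abundant genes, the proteasome genes offer a reference for the genes of mitochondrial energy supply. The 79 nuclear genes of oxidative phosphorylation had a median log2 fold change of -0.83, all 79 lower, and 22 passed the adjusted threshold. The 78 genes of the mitochondrial ribosome had a median of -0.43, with 76 lower and 1 called. Beside these, the proteasome core had -0.20, the 76 genes of the cytosolic ribosome -0.12 and the 8 genes of the CCT chaperonin, a folding ring of similar abundance, 0.0034. None of these 3 lists held a call in edgeR's test, and DESeq2 called 2 genes of the cytosolic ribosome. The differences between these lists were not tested.

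The lists differed also in how single mice lay. For oxidative phosphorylation the median difference from the control mean was -0.72, -0.91 and -0.87 in Ksp-Cre mice 1, 2 and 3, far from the -0.096 and 0.096 of the controls. For the proteasome core Ksp-Cre mouse 3 was at -0.02, inside the range of the controls, and the cytosolic ribosome had the same order, with -0.17, -0.25 and 0.058. For all genes tested the 5 medians lay from -0.0046 to 0.027.

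**Figure D4:**
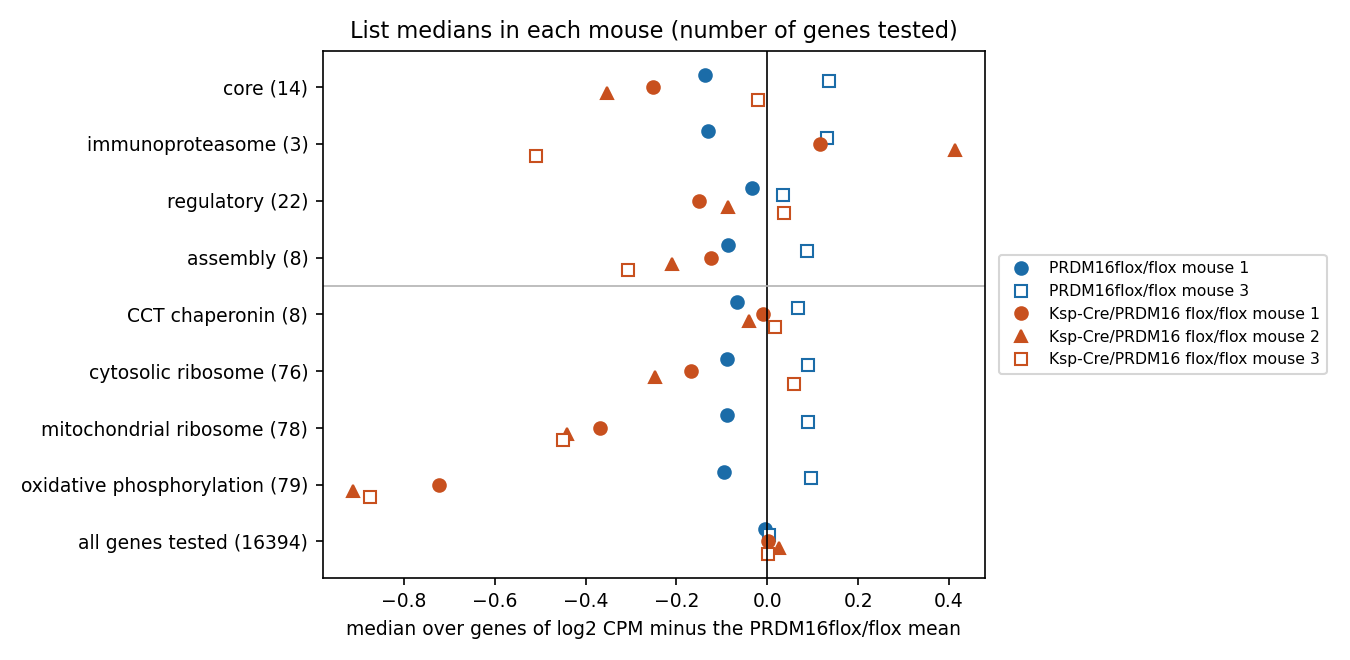
Median over the genes of each list of log2 CPM minus the mean of the 2 PRDM16flox/flox mice (horizontal axis), in each mouse, for the 4 proteasome classes (above the grey line) and for comparison lists (under it). All 3 Ksp-Cre/PRDM16 flox/flox mice lie left of both controls for oxidative phosphorylation and the mitochondrial ribosome, while mouse 3 lies between the controls for the proteasome core.

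Fold change depended on gene length over the whole transcriptome, and most proteasome genes are short. The 3283 genes of up to 1880 bp, the shortest of 5 bins of near-equal size by length, had a median of -0.16, and the next bins had -0.014, 0.075, 0.10 and 0.11. The 36 proteasome genes in the shortest bin had a median of -0.15 and the 13 core genes among them -0.21, beside the -0.16 of all genes of that length. Oxidative phosphorylation genes of the same bin, 68 in number, stood at -0.83.

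With the trend on length taken out of the fit, the core median became 0.057, with 9 of 14 higher, beside 0.061 for all genes. The regulatory and assembly medians became 0.078 and 0.068. After the same step oxidative phosphorylation moved from -0.83 to -0.52, with 77 of 79 lower and 0 called, and the mitochondrial ribosome from -0.43 to -0.24, with 67 of 78 lower and 0 called, where 33 genes were called in all. The cytosolic ribosome turned to 0.19. The direction of the core, regulatory and assembly medians thus changed with this step, and with a trend on GC content added the core median was 0.054.

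**Figure D5:**
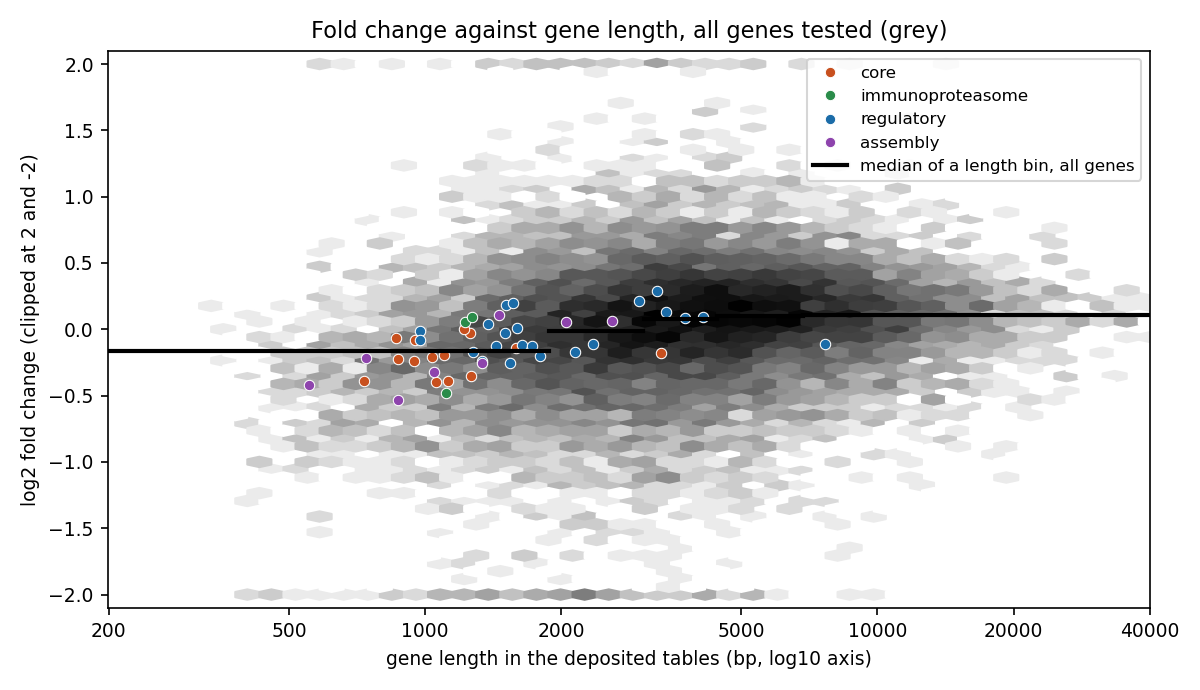
Log2 fold change (vertical axis, clipped at 2 and -2) against gene length in the deposited tables (log10 axis) for all 16394 genes tested, as grey hexagons that darken with the number of genes. Coloured points are the 47 proteasome genes by class and black lines the median of each of 5 bins of genes by length, within the plotted range: 36 of the 47 lie in the shortest bin, whose median is -0.16.

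Scaling also set the direction of some classes. Scaling by library size in place of TMM moved the median of all genes from 0.038 to 0.149. On that scale the median of the regulatory genes turned to 0.061, with 13 of 22 higher, and the core stayed lower at -0.089, with 10 of 14 lower. A change of scaling shifts nearly all genes alike. The core median relative to that of all genes, -0.237 and -0.238, therefore had to be similar on both scales and is no separate support. On the deposited TPM, which have no TMM factor and sum to 1000000 in each library, 36 of the 47 genes had a higher mean in the Ksp-Cre mice. Of the 14 core genes 9 did. The share of all genes with a higher mean TPM was not counted. These counts therefore have no background and cannot be read as a result about the proteasome genes. The summed TPM of the core genes was 4013 and 4406 in the controls and 4225, 4035 and 4487 in the Ksp-Cre mice.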

How the data were processed

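RNA was extracted with Trizol from the kidneys of 5 mice, described in the study's methods as cortex, and libraries were made with the NEBNext Ultra kit. The authors deposited 1 table per mouse with counts, TPM and FPKM for each gene, beside its position and length. The submitters' processing notes name CASAVA, featureCounts 2.0.1, DESeq2 1.16.1 and build hg38, although the genes are of mouse; the aligner, the mouse build and the strand setting are not given in the sources used here. TPM and FPKM were checked by recomputing them from the deposited counts and lengths, with no difference above rounding. A broken line was rejoined for 5 genes.

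Counts were analysed with edgeR 4.0.16 (R 4.3.3): filterByExpr, TMM scaling and a quasi-likelihood test of Ksp-Cre/PRDM16 flox/flox against PRDM16flox/flox, with Benjamini-Hochberg adjustment over 16394 genes and a threshold of 0.05. Intervals are at 95%. TPM were used for levels between genes. DESeq2 1.42.0, limma 3.58.1 on log2(FPKM + 1) and log2(FPKM + 0.1), other scalings and filters, a loess trend on gene length, the replicate number as a block and leaving out each mouse were alternatives; a trend on length and GC content together was added after the data were seen, and all 47 tested members had a GC value. The scripts were checked on simulated counts. The labels number the mice, so p-values measure the spread between mice.

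The members and lists were chosen with earlier results of these data known. Genes given in every mouse are the highest and lowest fold change of each class, the immunoproteasome genes with their constitutive partners, Psme1, Psme2, Pomp, Prdm16, and the smallest p of each pathway list, except items not reported here; others are named as chosen later. Gene lists hold genes found in the tables; Paaf1 and Trac are not analysed here. Promoter sequences are from RefSeq, whose build differs from that of the coordinates in the tables, and were matched by symbol.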

Additional observations from a re-analysis of the deposited data

How the results depend on the processing

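No proteasome gene was called by DESeq2, by limma, under any other scaling or filter, with either trend removed, or without any one mouse other than Ksp-Cre mouse 3 (fits in which no gene of the table was called), and at this depth the 2 least abundant members could not be tested. Leaving out single mice gave 0 to 5 called proteasome genes, 0 to 16 at an unadjusted p under 0.05 and 0 to 3053 called genes in all, the highest of each without Ksp-Cre mouse 3 (main values 0, 3 and 160). DESeq2 called 1183 genes, library size scaling 51, no filter 471, limma 69 with a pseudocount of 1 and 49 with 0.1, the length trend 33, and the length and GC trend 41. The replicate block left 0 genes called and 0 proteasome genes at an unadjusted p under 0.05. Ksp-Cre mouse 2 has no control of its number, so that fit compared only mice 1 and 3, and its count of 0 says nothing about the proteasome genes. With either trend removed 1 proteasome gene, Psmd13, had an unadjusted p under 0.05, as higher, and Psma4, Psmb6 and Psmg3 did not. Deviations of same-numbered mice from their group means correlated at r = 0.00102 for number 1 and -0.022 for number 3. With only 2 controls, whose deviations mirror each other, these values cannot show whether same-numbered mice share a litter or batch. The labels give no shared litter or batch, so the numbers were taken only as names. The medians of the classes ranged, without single mice, from -0.32 to -0.067 (core), -0.16 to 0.27 (immunoproteasome), -0.13 to -0.036 (regulatory) and -0.33 to -0.077 (assembly). With the length trend removed the core, regulatory and assembly medians were 0.057, 0.078 and 0.068, and with the length and GC trend 0.054, 0.10 and 0.045. With library size scaling the regulatory and assembly medians were 0.061 and -0.12, with limma at a pseudocount of 1 they were 0.046 and -0.12, and at 0.1 they were 0.046 and -0.13.

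Of 336 values of named genes under the alternatives 44 changed sign, in 11 genes. With the length trend removed these were Pomp 0.13, Psmb2 0.25, Psmb5 0.099, Psmc1 0.14, Psme1 0.27 and Psme2 0.20, and with the length and GC trend 0.12, 0.25, 0.050, 0.17, 0.26 and 0.21. Library size scaling gave Psmb2 0.046, Psmc1 0.078, Psme1 0.10, Psme2 0.044 and Psme4 0.00073. Limma at a pseudocount of 1 gave Psmb2 0.050, Psmc1 0.072, Psme1 0.11 and Psme2 0.020, and at 0.1 it gave 0.050, 0.072, 0.11 and 0.020. Psma5 was -0.0015 under RLE scaling and -0.0027 with at least 10 counts in every library. The replicate block gave Psmb8 -0.18, Psmb10 -0.17 and Psmc1 0.014. Without single mice Psma5 ranged from -0.15 to 0.17, Psmb2 from -0.22 to 0.097, Psmb8 from -0.16 to 0.27, Psmb10 from -0.13 to 0.32, Psmc1 from -0.17 to 0.053, Psme1 from -0.18 to 0.17, Psme2 from -0.19 to 0.065 and Psme3 from -0.010 to 0.20. The cause of these changes was not tested.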
